A study of Mus musculus with 15 samples.

Results

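Messenger RNA of 9 redox genes was followed through spermatogenesis in mouse testis, in animals given the contraceptive candidate JQ1, in animals that had recovered from it and in controls. The genes were Gpx4, Prdx4, Prdx6, Txnrd3, Txndc2, Txndc8, Gsr, Sod1 and Cat, chosen by symbol, and each symbol matched 1 row of the 32285 genes counted. JQ1 displaces BET proteins, among them the testis protein BRDT, from acetylated chromatin. Each of the 15 single-cell libraries came from 1 testis of 1 DBA/2J male, and each of 5 groups held 3 mice. T had received JQ1 intraperitoneally at 50 mg/kg every day for 3 wk and was sampled at the end of dosing at 10 wk of age, beside vehicle-injected VC-T of the same age. R had received the same course and was sampled 6 wk after its last dose at 16 wk of age, beside VC-R, which had received vehicle and had the same age. UC was never injected and was 15 wk old, so that in T against UC the drug, the injections and an age difference of several weeks cannot be told apart.

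Male germ cells make hydrogen peroxide and lipid peroxides as they differentiate, and remove them with peroxidases that draw their electrons from glutathione or thioredoxin. Gpx4 is the selenoprotein that reduces lipid hydroperoxides in membranes, and in sperm its oxidised protein also forms part of the mitochondrial capsule of the midpiece. Prdx4 is the peroxiredoxin of the endoplasmic reticulum, where it helps to form disulfide bonds, and Prdx6 is a peroxiredoxin with phospholipase activity. Txnrd3 is the testis-enriched thioredoxin-glutathione reductase, also a selenoprotein, and Txndc2 and Txndc8 are thioredoxins made mainly in spermatids. Gsr regenerates reduced glutathione, Sod1 converts superoxide to hydrogen peroxide in the cytosol, and Cat is the peroxisomal catalase.

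In the mm10 build (GRCm38) with GENCODE vM21, Gpx4 lies at chr10:80047166-80056439 (+), Prdx4 at chrX:155323918-155340754 (-), Prdx6 at chr1:161240112-161251219 (-), Txnrd3 at chr6:89643988-89675529 (+), Txndc2 at chr17:65637507-65642168 (-) and Txndc8 at chr4:57984027-58009124 (-). Gsr lies at chr8:33652523-33698163 (+), Sod1 at chr16:90220754-90226329 (+) and Cat at chr2:103453849-103485160 (-). Prdx4 was the only X-linked gene among them. Sod1 overlaps Scaf4 on the other strand. Gpx4 has 3 coding transcripts, and the counts give 1 value for all of them. Prdx6 has a near copy, Prdx6b, with a row of its own that held 152978 UMIs in the germ cell classes against 55917 for Prdx6, so that the values of Prdx6 are uncertain where the counting could have split reads between the copies.

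The catalytic codons are printed because they sort the members by chemistry. Capitals mark the in-frame TGA that the annotation reads as selenocysteine in Gpx4 and Txnrd3, or the 5 codons of the thioredoxin active site, with its pair of cysteines, in Txndc2 and Txndc8, each with up to 30 coding bases on either side.
Gpx4: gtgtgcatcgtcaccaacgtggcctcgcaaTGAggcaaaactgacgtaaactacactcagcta
Txnrd3: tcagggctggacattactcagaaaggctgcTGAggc
Txndc2: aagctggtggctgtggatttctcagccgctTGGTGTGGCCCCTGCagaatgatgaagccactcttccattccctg
Txndc8: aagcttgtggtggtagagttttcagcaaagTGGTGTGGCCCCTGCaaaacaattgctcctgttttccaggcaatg
The Gpx4 codon, at chr10:80054737-80054739 (+) in exon 3 of 7, was number 73 of 197 in transcript Gpx4-202 and number 129 of 253 in the longer Gpx4-201. That of Txnrd3, at chr6:89674789-89674791 (+) in the last of 16 exons, was number 614 of 615. The 15 bases in capitals, at chr17:65637741-65637755 (-) in exon 3 of 3 of Txndc2 and at chr4:58007099-58007113 (-) in exon 2 of 6 of Txndc8, were identical in the 2 thioredoxins, and began at codon 476 of 550 and at codon 57 of 153.

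Promoters of the gene with the highest counts and of the pair of genes with the largest differences under JQ1 are shown as the 250 bases before a RefSeq start (GRCm38.p6). The core of the cyclic AMP response element, TGACGT on either strand, occurred in 2125 of 32851 mouse promoters of this length (6.47%), and the core of the antioxidant response element, TGACNNNGC on either strand, in 3338 (10.2%). Capitals mark a match.
Gpx4 (chr10:80053409-80053658, +): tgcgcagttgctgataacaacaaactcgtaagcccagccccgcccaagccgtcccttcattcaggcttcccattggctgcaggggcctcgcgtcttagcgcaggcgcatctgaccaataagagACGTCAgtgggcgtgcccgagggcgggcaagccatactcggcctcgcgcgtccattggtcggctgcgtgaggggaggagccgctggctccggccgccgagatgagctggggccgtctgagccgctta
Txndc2 (chr17:65639757-65640006, -): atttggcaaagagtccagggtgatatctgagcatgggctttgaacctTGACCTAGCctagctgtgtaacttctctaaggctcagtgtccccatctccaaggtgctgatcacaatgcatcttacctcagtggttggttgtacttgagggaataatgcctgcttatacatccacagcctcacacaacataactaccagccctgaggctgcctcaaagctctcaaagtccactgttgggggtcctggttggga
Prdx4 (chrX:155338461-155338710, -): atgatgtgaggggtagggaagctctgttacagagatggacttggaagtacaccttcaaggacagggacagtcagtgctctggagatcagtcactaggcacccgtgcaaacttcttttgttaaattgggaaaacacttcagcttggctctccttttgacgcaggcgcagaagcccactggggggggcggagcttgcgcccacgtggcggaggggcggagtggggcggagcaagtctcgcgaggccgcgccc
RefSeq starts were found for 7 members. Their 11 promoters, with 4 starts for Gpx4 and 2 for Txndc2, held the first core in 3 (2 of Gpx4 and that of Sod1) and the second in 2 (that of Sod1 and 1 of Txndc2), so that the other starts of Gpx4 and Txndc2 had no match. A match describes letters and not binding.

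Cells were assigned to classes from transcripts, and the members took no part in the clustering. Of 101610 barcodes, 72362 passed the filters, and they divided into 3202 spermatogonia-like cells, 18461 resembling spermatocytes, 20324 resembling spermatids and 22788 resembling spermatozoa, beside smaller somatic classes and 3582 cells left unnamed. Of the spermatogonia-like cells, 1079 formed a cluster in which only Hells, Stra8 and Uchl1 of the spermatogonial markers reached 10% of cells. Its leading genes included Rad51ap2, Dazl, Stra8 and Meiob, so that this class may reach into early meiosis. No pair of libraries shared more than 46 barcodes, and none shared more than 0.554% of the barcodes of its smaller library. The libraries held 9673587 to 98724984 UMIs. Spermatozoa-like cells numbered 5 in the T libraries together against 5483 in UC, so that no member could be compared in that class under JQ1. The largest cluster of that class, of 6425 cells, was led by Tnp1, with Tnp2 and Prm1 among its leading genes. The class may thus hold late spermatids, and its levels are not those of sperm alone. The first VC-T library had no spermatozoa-like cell and it was left out of the fits, as in the study, unless stated. UC 1 stood apart in spermatocyte-like cells, where 8 late haploid genes (Prm1, Prm2, Tnp1, Tnp2, Oaz3, Smcp, Odf1 and Gapdhs) summed to 29401 CPM (a gene's UMIs scaled to a common total over its class) against 4685 and 6169 in UC 2 and UC 3. In spermatid-like cells the same sum was 4614 in VC-T 1, 4076 to 5795 in T and 63917 and 67616 in the other VC-T libraries.

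In untreated testis the members divided into genes of early cells, of meiosis and of haploid cells. Levels here are plain CPM of the UMIs summed over a class, as mean ± SD of the 3 UC libraries. They are given as a description, and in summed cells fewer cells of a stage and less RNA per cell cannot be told apart. Gpx4 was at 638 ± 78.1 CPM in spermatogonia-like cells and stepped up to 2452 ± 269.8 in spermatocyte-like, 2788 ± 12.7 in spermatid-like and then 4270.4 ± 134 in spermatozoa-like cells, and the ranges of the libraries did not overlap at any step. Spermatozoa-like cells thus held 6.76 times the spermatogonial share of Gpx4 on average, with 5.70 to 7.34 in single mice.

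The peroxiredoxins took opposite courses. Prdx4 was at 323 ± 2.43 CPM in spermatogonia-like and 46.9 ± 49.2 in spermatocyte-like cells, returned to 305 ± 32.8 in spermatid-like cells and reached 568 ± 33.8 in spermatozoa-like cells. Its spermatogonial and spermatid ranges overlapped. Prdx6 was highest in spermatocyte-like cells at 221 ± 9.92 CPM, followed by 182 ± 15.9 in spermatid-like, 86.9 ± 1.32 in spermatozoa-like and 54.1 ± 3.34 in spermatogonia-like cells, with no overlap between neighbours.

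Of the thioredoxin genes, the reductase gene was highest in meiotic cells and the thioredoxin genes in haploid cells. Txnrd3 stood at 383 ± 43.0 CPM in spermatocyte-like, 204 ± 15.3 in spermatid-like, 145 ± 23.9 in spermatogonia-like and 43.7 ± 6.74 in spermatozoa-like cells, again without overlap between neighbours. Txndc8 was highest in spermatid-like cells, at 507 ± 37.8 CPM against 354 ± 35.4 in spermatozoa-like cells, and Txndc2 in spermatozoa-like cells, at 688 ± 26.1 against 284 ± 22.7 in spermatid-like cells. Both were low before meiosis ended, with 41.0 to 51.8 CPM of Txndc2 and 25.9 to 53.1 CPM of Txndc8 in spermatogonia-like cells, and these values overlapped those of spermatocyte-like cells.

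Among the general redox enzymes, Sod1 was at 362 ± 18.6 CPM in spermatogonia-like cells and 89.8 ± 62.8 in spermatocyte-like cells, and at 644 ± 22.5 and 655 ± 16.2 in spermatid-like and spermatozoa-like cells, whose ranges overlapped. Gsr was found mainly in spermatogonia-like cells, at 117 ± 34.4 CPM against 1.57 ± 1.38 in spermatocyte-like and 5.97 ± 1.31 in spermatid-like cells. Cat was low throughout, with 15.5 to 24.1 CPM in spermatogonia-like cells and at most 1.71 CPM in a library of the other germ cell classes. In UC spermatocyte-like cells the highest value of Prdx4, Txndc2, Txndc8 and Sod1 came from UC 1 each time.

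A finer order came from pseudotime, a ranking of the germ cells from spermatogonia-like to spermatozoa-like cells that did not use the members, divided into 20 bins of equal size. Spermatogonia-like cells filled bin 1, spermatocyte-like cells bins 2 to 6, spermatid-like cells bins 8 to 13 and spermatozoa-like cells bins 14 to 20, and bin 7 was mixed. In UC, Txnrd3 peaked in bin 5 at 497 ± 17.5 CPM, Prdx6 in bin 7 at 316 ± 65.9, Txndc8 in bin 10 at 589 ± 76.2, Prdx4 and Sod1 in bin 15 at 659 ± 62.2 and 687 ± 66.5, Gpx4 in bin 19 at 4844 ± 235 and Txndc2 in bin 20 at 816 ± 51.2. Gsr and Cat peaked in bin 1. The peak bin of the 3 UC mice differed by at most 1 bin for every member other than Sod1, whose peaks ran from bin 10 to bin 15.

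The low points of 5 members lay in meiotic bins, and Gsr was at 0 CPM in bin 3. Prdx4 had 8.39 CPM in bin 4 and 78.5-fold more at its peak, Txndc2 had 6.07 CPM in bin 5 and 135-fold more at its peak, Txndc8 10.3 CPM in bin 5 and 57.2-fold more, and Sod1 32.8 CPM in bin 5 and 20.9-fold more. These folds are descriptions of the UC means. Txnrd3 ran the other way and was 17.7-fold lower in bin 20 than in bin 5. Over 60 points (20 bins in each UC library, which share cells of one depth and one mouse), log2 CPM of Prdx4 and Txndc2 correlated at r = 0.94, Txndc8 and Sod1 at 0.94, and Txnrd3 and Txndc2 at -0.89.

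**Figure D1:**
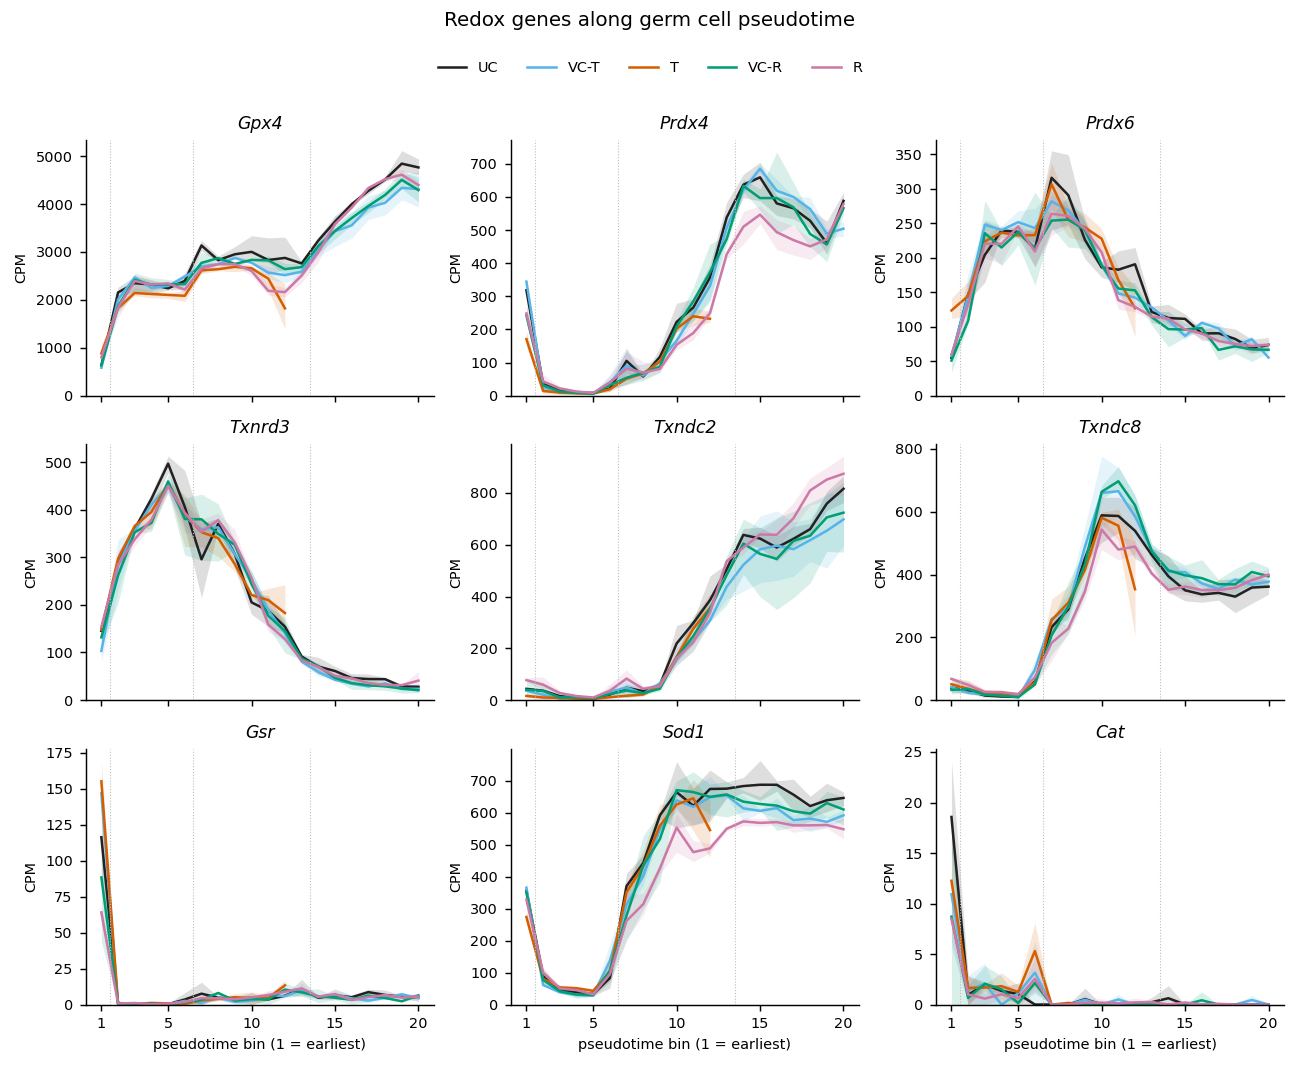
CPM of each member (y axis) in 20 pseudotime bins (x axis, 1 = earliest), as the mean of a group's libraries with the range from lowest to highest library shaded, VC-T 1 left out. Dotted lines separate bins by the class that fills most of them, T ends at bin 12, and Txnrd3 peaks in bin 5, Txndc8 in bin 10 and Gpx4 in bin 19 in UC.

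Among 8489 genes above 50 CPM in some bin, those that ran most like Gpx4 over the same points were Tcp11 (r = 0.99), a gene of sperm motility, Plaat5 (0.98), Gstm5, a glutathione S-transferase (0.97), Gm5617 (0.97) and Morn2 (0.97). Txnrd3 ran most like Morf4l1 and Selenos, the latter itself a selenoprotein gene (both 0.98), Txndc2 like Hypm and Hmgb4 (both 0.99), and Txndc8 like Tescl (0.99) and Gstt4 (0.98). Prdx4 was closest to Eef1d (0.97) and Luzp1 (0.96), Prdx6 to Slc2a5 and Acrbp (both 0.94), Sod1 to Ccdc50 (0.98) and Dynll2 (0.97), Cat to Tcf3 (0.86) and Hist1h2bj (0.86), and Gsr to Zfp286os (0.75) and Dcaf1 (0.74).

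The share of Gpx4 and the Gpx4 content of a cell followed different courses. Its share of UMIs was highest in bin 19, whereas the number of Gpx4 UMIs per cell was highest in bin 5, at 25.9 in UC, in the middle of the spermatocyte-like bins.

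**Figure D2:**
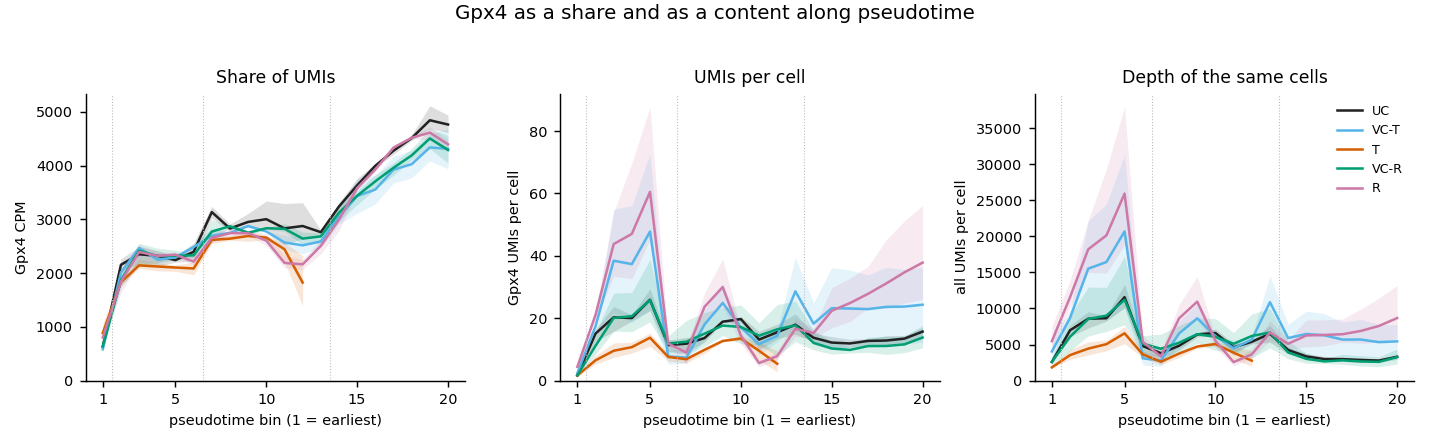
Gpx4 along the 20 pseudotime bins (x axis) as CPM (left), as UMIs per cell (middle) and beside all UMIs per cell of the same cells (right), with group means as lines and the range of libraries shaded (VC-T 1 left out). In UC both the middle and the right curve are highest in bin 5, while the left one is highest in bin 19.

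In spermatid-like cells of JQ1-treated mice, Prdx4 fell 2.96-fold and Txndc2 3.67-fold, Gpx4, Txndc8 and Sod1 fell by smaller amounts, and no member rose in the fit of all cells. For tests, counts were normalized by the trimmed mean of M-values (TMM), a gene was called at an adjusted p under 0.05 and a fold change over 2, and values below are TMM-normalized CPM. These values were scaled over all libraries of a class, VC-T 1 included, without a filter of low counts. Each fit scaled its own libraries after such a filter, so that ratios of the values can differ from the fold changes given. Of 8 members tested, 2 were called, both lower, where 19.0% of all 13253 genes were called in either direction and 15.4% lower. By adjusted p alone 5 of the 8 were lower, these 2 included, as were 28.5% of all genes. An approximate subtraction of ambient RNA took an estimated 23.8% to 42.7% of UMIs in T and 8.47% to 12.4% in UC. The part of this unequal share was not tested. After the subtraction, Prdx4 (-1.09) and Txndc2 (-1.35) were still called (edgeR adjusted p = 0.00109 and 0.00236), and the share of all genes called after it is not given. Gpx4 (-0.12), Txndc8 (-0.11) and Sod1 (-0.13) no longer passed (edgeR adjusted p = 0.0979, 0.382 and 0.226), and Prdx6 (0.26) was higher by adjusted p alone (0.0411).

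Prdx4 was at 120.1, 108 and 108 normalized CPM in the T mice and at 347, 372 and 284 in the UC mice. The groups did not overlap, and the log2 fold change was -1.57 ± 0.10 (SE; edgeR quasi-likelihood test, Benjamini-Hochberg adjusted p = 1.13e-08). Txndc2 was at 105, 73.8 and 69.6 in T and at 321, 339 and 274 in UC, a log2 fold change of -1.87 ± 0.14 (edgeR adjusted p = 4.06e-08). For both genes every T mouse lay below every UC mouse, and the first VC-T library, at 108 for Prdx4 and 108 for Txndc2, lay at the level of T. Here and below, the share of all genes whose groups did not overlap was not counted.

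Gpx4 stood at 2321, 2379 and 2328 normalized CPM in T and 3065, 3147 and 2936 in UC, a log2 fold change of -0.38 ± 0.05 (edgeR adjusted p = 3.37e-05). The groups did not overlap, but the size depends on the scaling. In the values shown, TMM lowered T and raised UC by 0.17 and 0.13 log2 units. The plain CPM of these groups were 2634 ± 20.2 and 2788 ± 12.7, and the offsets of the fit itself are not given. Sod1, at 477, 466 and 488 in T and 697, 754 and 665 in UC, had a log2 fold change of -0.56 ± 0.06 (edgeR adjusted p = 4.91e-06), and Txndc8, at 385, 370.1 and 382 and 587, 587 and 491, one of -0.55 ± 0.08 (edgeR adjusted p = 3.05e-05). In all 3 genes the highest T mouse lay below the lowest UC mouse, and the share of all genes of which this held was not counted.

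The other members did not pass the test in this class. Txnrd3 was at 239, 259 and 238 in T and 235, 209 and 222 in UC, with a log2 fold change of 0.14 ± 0.07 (edgeR adjusted p = 0.107). Prdx6 had a log2 fold change of 0.10 ± 0.07 (edgeR adjusted p = 0.26) and Gsr, at 3.43 to 8.12 normalized CPM in these libraries, one of -0.55 ± 0.27 (edgeR adjusted p = 0.101). Cat was too low to be tested. The median over the 8 members was -0.55, beside 0.05 over all genes tested.

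**Figure D3:**
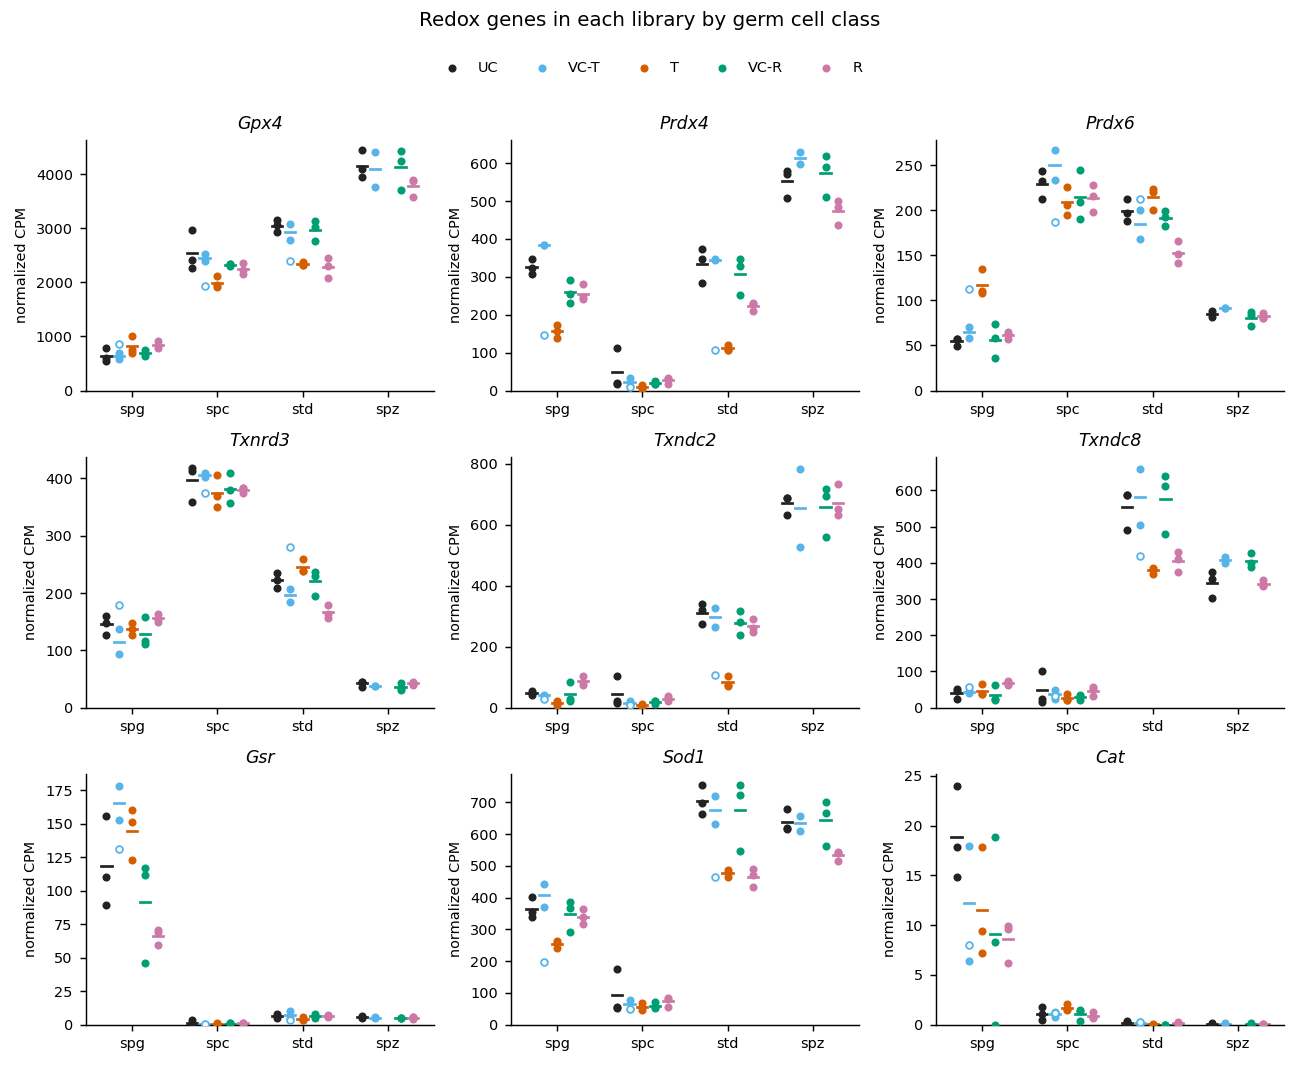
TMM-normalized CPM of each member (y axis) in spermatogonia-like (spg), spermatocyte-like (spc), spermatid-like (std) and spermatozoa-like (spz) cells, 1 point per library and a bar at the group mean, with VC-T 1 as an open point outside the mean. In std the 3 T points of Prdx4 and Txndc2 lie below all UC, VC-R and R points, together with the open one.

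The stage and depth of the spermatid-like cells moved with these differences. The 8 late haploid genes summed to 4076 to 5795 CPM in T against 45394 to 52643 in UC, and T held 28 cells in bin 13 and 170 in bin 12, against 607 and 390 in UC. Median UMIs per cell were 2256 to 3243 in T and 4264 to 5448 in UC, and the 8 Sertoli markers, all detected, summed to 5.04 to 17.7 CPM against 32.1 to 51.5. The part of depth and of Sertoli transcripts was not tested. When every library gave the same number of cells to each of 50 finer pseudotime intervals of the class (326 cells per library), the log2 fold change of Prdx4 was -0.10 ± 0.10 (edgeR adjusted p = 0.602) and that of Txndc2 -0.19 ± 0.11 (edgeR adjusted p = 0.309), so that neither remained called. Gpx4 stayed lower at -0.23 ± 0.05 (edgeR adjusted p = 0.00345), and it was 1 of 7 members tested to pass the threshold, where 10.8% of all genes passed. Sod1 was at -0.18 ± 0.07 (edgeR adjusted p = 0.0831) and Txndc8 at -0.15 ± 0.08 (edgeR adjusted p = 0.222).

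**Figure D4:**
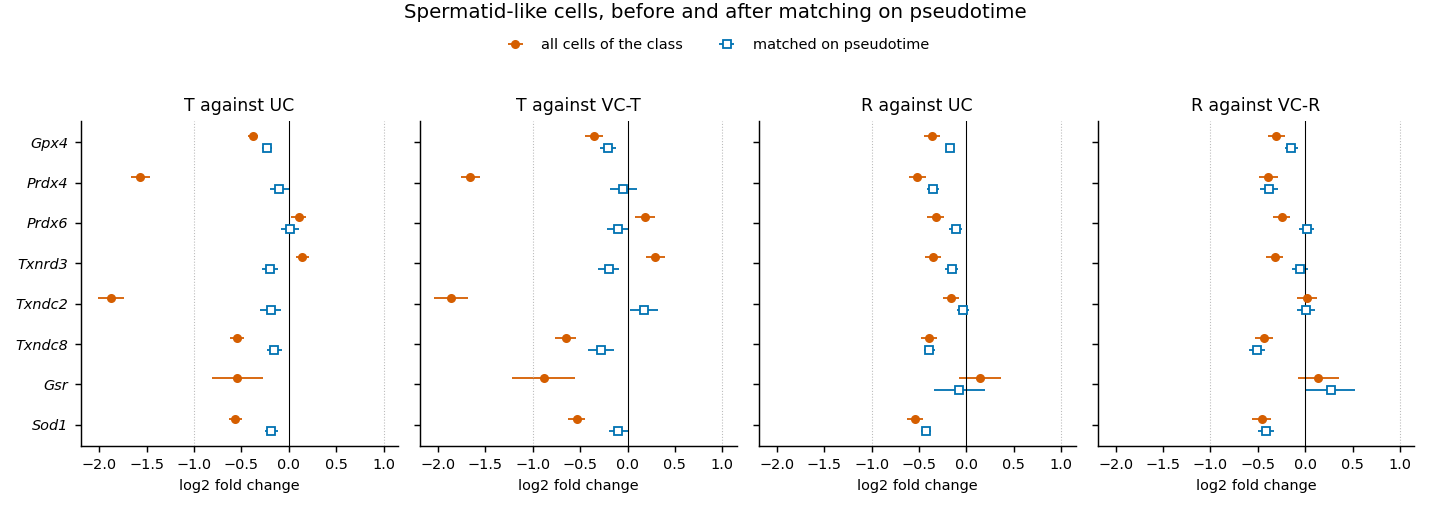
Log2 fold change ± SE (x axis) of 8 members (y axis) in spermatid-like cells in 4 comparisons, for all cells of the class (orange circles) and for cells matched on pseudotime (open blue squares), with dotted lines at a fold change of 2. In T against UC, Prdx4 goes from -1.57 to -0.10 and Txndc2 from -1.87 to -0.19, while Gpx4 goes from -0.38 to -0.23 and Gsr has no matched value.

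Bin by bin and without TMM, Gpx4 had T mice below UC mice without overlap in 8 of the 12 bins that both groups filled, above them in bin 1 and overlapping in 3. The ratio of its T mean to its UC mean ran from 0.634 to 0.938 in those 8 bins, with 0.835 in bin 7, 0.886 in bin 10 and 0.634 in bin 12. In bin 12 Prdx4 (0.65), Txndc8 (0.655) and Prdx6 (0.665) had ratios nearly as low. Sod1 was there at 0.809, Txndc2 at 0.921, Txnrd3 at 1.187 and Gsr at 2.175. In bin 10, Prdx4 was at 202 ± 16.0 CPM in T and 223 ± 48.9 in UC, and Txndc2 at 167 ± 17.6 and 219 ± 69.5, with overlap in both genes. Prdx4 was lower without overlap in 3 of the 12 bins (1, 7 and 12) and Txndc2 in 4 (1, 2, 6 and 7). No test was run on single bins, and the share of all genes without overlap in a bin was not counted.

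In spermatogonia-like cells Prdx6 rose and Txndc2 fell under JQ1, and in the fit Prdx4 fell by somewhat less than the fold threshold. Of 8 members tested, 2 were called, where 6.65% of all genes were. Prdx6 was at 108, 134 and 109.8 normalized CPM in T and 49.4, 57.6 and 56.6 in UC, a log2 fold change of 1.23 ± 0.21 (edgeR adjusted p = 7.75e-04). Txndc2 was at 20.5, 7.56 and 15.3 and 49.4, 40.8 and 53.7, a log2 fold change of -1.5 ± 0.35 (edgeR adjusted p = 0.00847), and Prdx4 at 139.7, 174 and 158 and 306, 324 and 347, one of -0.93 ± 0.14 (edgeR adjusted p = 3.03e-04). None of the 3 genes overlapped between the groups, and the share of all genes without overlap was not counted.

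Gpx4 was higher by adjusted p alone, at 1014, 701 and 753 in T and 553, 604 and 784 in UC, with overlapping groups and a log2 fold change of 0.48 ± 0.14 (edgeR adjusted p = 0.0356), which missed the threshold without T 1, UC 1 or UC 2 (0.27, 0.37 and 0.38, edgeR adjusted p = 0.19, 0.161 and 0.188). Txndc2 missed it without UC 3 (-1.44, edgeR adjusted p = 0.0557). All 8 late haploid genes were called lower in these cells too, with sums of 456 to 1252 CPM in T against 10297 to 12946 in UC, and their part in the differences of Txndc2 and Prdx4 was not tested. Ambient RNA was estimated at 23.8% to 42.7% of these UMIs in T and 8.47% to 12.4% in UC. The T estimates rest on late haploid genes with 0.148% to 0.293% of a library's UMIs, against 10.4% to 12.2% in UC. The part of this unequal share was not tested. After an approximate subtraction of that RNA, Gpx4 was at -0.57 ± 0.34 (edgeR adjusted p = 0.269), Prdx6 at 0.81 ± 0.39 (edgeR adjusted p = 0.179) and Prdx4 at -0.62 ± 0.14 (edgeR adjusted p = 0.0159). Prdx4 alone of the 3 thus still passed, and Txndc2 had too few counts. The share of all genes passing after the subtraction is not given. The 8 Sertoli markers summed to 10.4 to 52.6 CPM in T and 67.3 to 120.3 in UC, and their part was not tested. In VC-T 1, Prdx6 was at 112 and Prdx4 at 147, both within the range of T. With 66 cells per library matched on pseudotime, Prdx6 was at 1.16 ± 0.34 (edgeR adjusted p = 0.0168), Prdx4 at -1.04 ± 0.22 (edgeR adjusted p = 0.00116) and Gpx4 at 0.76 ± 0.14 (edgeR adjusted p = 2.51e-04), where 8.95% of all genes were called, and Txndc2 had too few counts.

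In spermatocyte-like cells no member was called by edgeR, where 0.622% of all genes were, and 3 of the 7 members tested differed at an unadjusted p under 0.05. DESeq2 called no member in this class either, and by its adjusted p alone Gpx4 passed (-0.40, adjusted p = 0.00606). Prdx4 was at 14.2, 5.30 and 9.32 normalized CPM in T and 112, 18.1 and 19.6 in UC, and Txndc2 at 11.4, 4.40 and 5.59 and 103, 14.1 and 20.7, so that UC 1 carried most of both differences. Their log2 fold changes were -2.42 ± 0.79 (edgeR adjusted p = 0.146) and -2.72 ± 0.82 (edgeR adjusted p = 0.122), and without UC 1 they came to -0.98 and -1.29. Matched on pseudotime, Prdx4 was at -1.18 ± 0.33 (edgeR adjusted p = 0.0166) and Txndc2 at -1.20 ± 0.32 (edgeR adjusted p = 0.0125), both called, as were 3.48% of all genes, with the late haploid sum at 234 to 686 CPM in all T cells of the class against 4685 to 29401 in UC. Txnrd3, whose peak lies in this class, was at 369, 406 and 349.7 in T and 359, 413 and 418 in UC, with a log2 fold change of -0.12 ± 0.07 (edgeR adjusted p = 0.384).

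Against vehicle-injected mice of the same age, with VC-T 2 and VC-T 3, Prdx4 fell in 2 classes and Txndc2 in the same 2, and Prdx6 rose in spermatogonia-like cells. In spermatid-like cells 2 of 8 members were called, where 23.1% of all genes were. Prdx4 stood at 344 and 347 normalized CPM and Txndc2 at 327 and 266 in these libraries, well above T. The log2 fold changes were -1.66 ± 0.10 (edgeR adjusted p = 1.51e-06) and -1.86 ± 0.18 (edgeR adjusted p = 2.07e-05). Gpx4 (-0.36), Txndc8 (-0.66) and Sod1 (-0.54) were lower and Txnrd3 (0.29) was higher by adjusted p alone, at 0.0101, 9.61e-04, 0.00103 and 0.0352 in the edgeR fit, where 27.6% of all genes were lower on that criterion. Gpx4 missed the threshold without T 2 or T 3 (adjusted p = 0.0746 and 0.0772), and Txnrd3 did without T 1, T 2, T 3 or VC-T 2 (adjusted p from 0.0657 to 0.171).

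In spermatogonia-like cells 3 of 9 members were called against vehicle, where 8.79% of all genes were. Prdx4 was at 385 and 384 in vehicle, a log2 fold change of -1.09 ± 0.18 (edgeR adjusted p = 1.18e-04). Prdx6 was at 58.5 and 71.0 (1.08 ± 0.23, edgeR adjusted p = 0.00176), and Txndc2 at 42.1 and 38.7 (-1.20 ± 0.36, edgeR adjusted p = 0.0275). Prdx6 missed the threshold without VC-T 2 (0.90, adjusted p = 0.0754), and Txndc2 did without T 2, T 3, VC-T 2 or VC-T 3 (adjusted p from 0.0528 to 0.199). No member was called by edgeR in spermatocyte-like cells, where 2.92% of all genes were, and 4 of 8 differed at an unadjusted p under 0.05. With VC-T 1 in the fit no pair of a member and a class was called in any of the 3 classes (0 of 24, against 5 of 25 without it), although the log2 fold changes stayed at -1.32 for Prdx4 and -1.56 for Txndc2 in spermatid-like and -1.19 for Txndc2 in spermatogonia-like cells (edgeR adjusted p = 0.122, 0.116 and 0.44). The other calls also fell under the fold threshold. In spermatogonia-like cells Prdx4 went to -0.85 and Prdx6 to 0.72 (edgeR adjusted p = 0.497 and 0.551). Matched on pseudotime none was called (0 of 20), with Prdx4 at -0.04 and Txndc2 at 0.17 in spermatid-like cells, whereas in spermatogonia-like cells Prdx4 (-0.97) and Prdx6 (0.89) still passed by adjusted p alone (edgeR adjusted p = 0.00147 and 0.0215). The matched fits held 170 spermatogonia-like, 250 spermatocyte-like and 307 spermatid-like cells per library. The share of all genes called in these matched fits, or in the fits with VC-T 1, is not given. The losses of calls are therefore not a result about the members. After ambient subtraction Prdx6 in spermatogonia-like cells was at 0.62 (edgeR adjusted p = 0.397).

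At 6 wk after the last dose no member was called against UC or VC-R, and several lay moderately lower in spermatid-like cells. In R against UC no pair of a member and a class was called by edgeR or by DESeq2 (0 of 33 by edgeR, with 15 at an unadjusted p under 0.05), and in R against VC-R likewise (0 of 32, with 14). Counts at an unadjusted p, here and in the other paragraphs, lack a share of all genes. They are therefore not a result about the members. Of all genes, 2.94% were called against UC in spermatogonia-like, 0% in spermatocyte-like, 7.20% in spermatid-like and 0.653% in spermatozoa-like cells, and 0%, 0.0283%, 7.11% and 0% against VC-R in the same order. R was compared with the same UC mice as T.

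In spermatid-like cells 6 of 8 members were lower in R by adjusted p alone in both comparisons, where 18.8% of all genes were lower than in UC and 13.7% lower than in VC-R. Sod1 was at 470.3, 490.4 and 434 normalized CPM in R, 697, 754 and 665 in UC and 548, 754 and 722 in VC-R, with log2 fold changes of -0.54 ± 0.08 (edgeR adjusted p = 1.20e-06) and -0.46 ± 0.10 (edgeR adjusted p = 0.00147). Prdx4 was at 229, 232 and 209 in R and 251, 329 and 346 in VC-R, which gave -0.52 ± 0.09 against UC (edgeR adjusted p = 9.47e-06) and -0.39 ± 0.10 against VC-R (edgeR adjusted p = 0.00498). Gpx4 was at 2307, 2445 and 2080.2 in R and 2771, 3017 and 3128 in VC-R, with -0.36 ± 0.08 (edgeR adjusted p = 4.76e-04) and -0.31 ± 0.09 (edgeR adjusted p = 0.0114). For these 3 genes every R mouse lay below every UC and VC-R mouse, and the share of all genes of which this held was not counted.

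Txndc8 (-0.39 and -0.44), Txnrd3 (-0.35 and -0.32) and Prdx6 (-0.32 and -0.25) were the others. Against VC-R, Gpx4 and Txnrd3 missed the threshold without R 1, R 3 or VC-R 3, Prdx6 without R 1, R 3, VC-R 2 or VC-R 3 and Prdx4 without VC-R 3 (edgeR adjusted p from 0.0506 to 0.195), while Txndc8 and Sod1 passed each time. Txndc2, which had the largest fold change in T, was in R at 292, 259.7 and 247 against 321, 339 and 274 in UC and 279, 238 and 318 in VC-R, with log2 fold changes of -0.16 ± 0.09 (edgeR adjusted p = 0.137) and 0.02 ± 0.10 (edgeR adjusted p = 0.917). The scaling bears on these sizes. In the values shown, TMM lowered R by 0.13 log2 units and raised UC by 0.13 and VC-R by 0.12, and the offsets of the fits are not given. In plain CPM, Prdx6 (161 to 175 in R, 171 to 200.2 in UC and 172 to 181 in VC-R) overlapped with both control groups, Txnrd3 (176 to 190.0 and 186 to 214) overlapped with UC, and Gpx4 was at 2480.0 ± 109 in R and 2788 ± 12.7 in UC. Depth and somatic transcripts moved with R in this class too, with median UMIs per cell of 1507 to 2177 against 4264 to 5448 in UC and 3176 to 6922 in VC-R, and a summed level of the 8 Sertoli markers, all detected, of 83.0 to 103 CPM against 32.1 to 51.5 and 18.2 to 66.4. Their part in the result was not tested. Matched on pseudotime, Gpx4, Prdx4, Txndc8 and Sod1 remained lower than in UC (-0.18, -0.35, -0.39 and -0.43), where 15.1% of all genes were lower, and Prdx4, Txndc8 and Sod1 lower than in VC-R, where 11.2% were (-0.38, -0.51 and -0.41).

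Spermatozoa-like cells, nearly absent in T, numbered 9171 in R. There 2 of 8 members were lower than in UC by adjusted p alone, which 2.69% of all genes were. Sod1 was at 542, 545 and 514 normalized CPM in R and 621, 679 and 616 in UC, a log2 fold change of -0.29 ± 0.07 (edgeR adjusted p = 0.00676). Prdx4 was at 483, 499 and 436 and 579, 572 and 509, one of -0.25 ± 0.07 (edgeR adjusted p = 0.0252) that missed the threshold without R 1, R 3, UC 1 or UC 2 (adjusted p from 0.0676 to 0.181). Neither passed when matched on pseudotime, with Sod1 at -0.20 and Prdx4 at -0.15 (edgeR adjusted p = 0.0609 and 0.237), or after ambient subtraction, with -0.15 and -0.11 (edgeR adjusted p = 0.218 and 0.534). Sertoli markers summed to 46.0 to 60.6 CPM in R and 27.6 to 31.4 in UC, and their part was not tested. Against VC-R the same genes had -0.29 ± 0.11 and -0.30 ± 0.11 and did not pass (edgeR adjusted p = 0.243 and 0.233). Gpx4, at 3889, 3874 and 3575 in R, 4094, 4443 and 3947 in UC and 3714, 4432 and 4239.8 in VC-R, had a log2 fold change of -0.17 ± 0.07 against UC (edgeR adjusted p = 0.183).

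In spermatogonia-like cells of R, Gsr and Prdx4 were lower and Txndc2 and Gpx4 higher than in UC by adjusted p alone, where 11.7% of all genes passed. Gsr was at 70.4, 69.1 and 59.5 normalized CPM in R and 88.9, 156 and 110.3 in UC, a log2 fold change of -0.93 ± 0.19 (edgeR adjusted p = 0.00314) that missed the threshold without UC 2 (-0.69, edgeR adjusted p = 0.0695). Prdx4, Txndc2 and Gpx4 each missed it without at least 3 of the 6 libraries in turn. Txndc2 was at 83.2, 104 and 73.7 in R, with 0.79 ± 0.22 (edgeR adjusted p = 0.0197), beside a late haploid sum of 16244 to 22872 CPM against 10297 to 12946 in UC. Sertoli markers summed to 143 to 259 CPM in R against 67.3 to 120.3 in UC, and the part of either sum was not tested. Matched on pseudotime none of the 4 passed (in the order named above, edgeR adjusted p = 0.669, 0.607, 0.108 and 0.0616). Against VC-R no member passed in this class by edgeR or DESeq2, as 0% of all genes did by edgeR, although 3 of 8 members had an unadjusted p under 0.05, and Gsr was at -0.57 ± 0.26. In spermatocyte-like cells no member passed in either comparison.

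The difference between the drug's effect at the end of dosing and its effect after withdrawal, (T against VC-T) against (R against VC-R), shares no control mice. It called 4 of 25 pairs of a member and a class, Prdx4 and Txndc2 in both spermatogonia-like and spermatid-like cells, where 2.69% and 28.7% of all genes were called (1.66% in spermatocyte-like cells). The log2 differences were -1.22 ± 0.15 for Prdx4 and -1.83 ± 0.21 for Txndc2 in spermatid-like cells (edgeR adjusted p = 3.15e-06 and 1.02e-06). Matched on pseudotime these 2 turned to 0.78 ± 0.18 and 0.56 ± 0.21 (edgeR adjusted p = 0.0101 and 0.0944). In spermatogonia-like cells the matched differences were -0.77 for Prdx4 and -3.62 for Txndc2 (edgeR adjusted p = 0.147 and 0.0157).

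Other genes of the redox network, 99 in the files on a list chosen with earlier results of these data known, divided in T spermatid-like cells. Of 63 tested against UC, 9 were called, 1 higher and 8 lower, where 19.0% of all genes were, and by adjusted p alone 19 were higher and 15 lower, as were 24.7% and 28.5% of all genes. Their median log2 fold change was 0.10, beside 0.05 over all genes. Gclm, the modifier subunit of the enzyme that starts glutathione synthesis, rose (1.12 ± 0.16, edgeR adjusted p = 4.93e-05). Slc7a11, the cystine importer that feeds glutathione synthesis, fell (-4.29 ± 0.29, edgeR adjusted p = 2.28e-08), as did Srxn1, which restores overoxidised peroxiredoxins (-1.96 ± 0.14, edgeR adjusted p = 4.81e-08), and the selenoprotein gene Selenok (-1.64 ± 0.11, edgeR adjusted p = 1.65e-08). Of the peroxiredoxin group 4 were tested, with 1 called lower (Srxn1) and 2 higher by adjusted p alone, and of the 10 thioredoxin system genes none was called and 3 were higher by adjusted p alone. Matched on pseudotime 0 of 49 list genes were called by edgeR, and 7 passed at the adjusted p alone (1 higher and 6 lower), as did 10.8% of all genes. The share of all genes called in that fit is not given and cannot exceed 10.8%. In the same fit Selenok was at -0.37, Srxn1 at -0.29 and Gclm at 0.58.

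**Figure D5:**
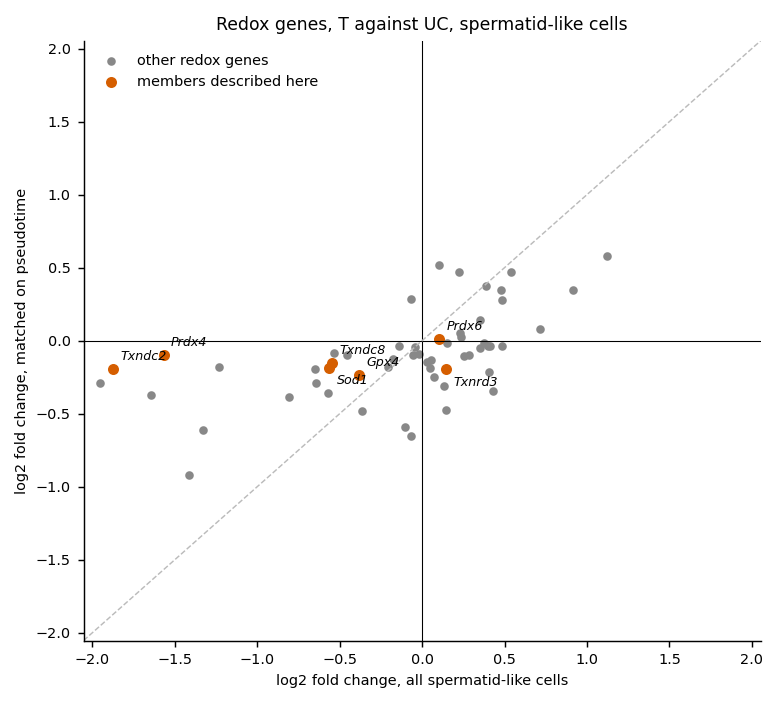
Log2 fold change of T against UC in spermatid-like cells for 56 redox genes tested both ways, 7 of them members (labelled, orange), with all cells of the class on the x axis and cells matched on pseudotime on the y axis; the dashed line marks equal values. Most points left of -1 lie nearer to 0 on the y axis, with Prdx4 going from -1.57 to -0.10.

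Against vehicle, where the share of all genes called is given above, 14 of the 69 list genes tested were called in T spermatid-like cells, 5 higher and 9 lower. Those with the smallest p were Prdx1 (1.33 ± 0.15, edgeR adjusted p = 5.54e-05) and Prdx5 (1.12 ± 0.12, edgeR adjusted p = 5.59e-05), both peroxiredoxins of somatic tissues too, and Gclm (1.34) among the higher, and Selenok (-1.97), Slc7a11 (-4.41) and Srxn1 (-2.19) among the lower. In recovered spermatid-like cells 6 of 71 list genes were called against UC and 9 of 73 against VC-R, all higher, where 7.20% and 7.11% of all genes were called, nearly all of them higher too (1048 of 1061 and 1044 of 1051). The leading genes were Ftl1, the ferritin light chain (1.17 ± 0.23), Gstm1 (1.43 ± 0.28) and Txn1 (1.57 ± 0.40) against UC, and the glutathione S-transferases Gstm1 (1.96 ± 0.30), Gsta4 (1.88 ± 0.29) and Gstm6 (2.38 ± 0.42) against VC-R, in the cells whose Sertoli marker levels are given above. In spermatogonia-like cells 2 list genes were called in R against UC, where 2.94% of all genes were. They were Selenov (1.41 ± 0.32) and Gpx6 (1.39 ± 0.43), a selenoprotein gene and a glutathione peroxidase gene, both higher. Matched on pseudotime, Selenov was at 1.56 (edgeR adjusted p = 0.0378), and Gpx6 had no matched value. The late haploid and Sertoli sums of these cells, given above, were also higher in R than in UC, and their part was not tested. In T against vehicle the ferritin-related Fthl17a was called in spermatogonia-like cells (1.84 ± 0.58, edgeR adjusted p = 0.0349), where 8.79% of all genes were. It had no matched value. The number of list genes tested in spermatogonia-like cells is not given, so that these calls cannot be set against the shares of all genes.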

How the data were processed

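Testis cells of 15 mice were profiled by 10x Genomics 3′ single-cell RNA-seq. The authors deposited raw UMI counts per gene and barcode, aligned to mm10. Per the labels Cell Ranger 3.0.0 was used, while the file headers name 7.0.0, and whether intron reads were counted is not given in the sources used here. The ambient RNA correction and doublet removal of the study are not in these counts.

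A barcode was kept from 500 genes and 1000 UMIs upward if its mitochondrial share was below 30%, and the 5.4% with the highest Scrublet score in each library were removed. With scanpy 1.11.5, 2000 variable genes without the members, the redox list or the late haploid set gave 30 components, a graph of 20 neighbours and Leiden clusters (resolution 1.2). Clusters were named from fixed markers, and hence are called spermatid-like and so on. Diffusion pseudotime was cut into 20 bins of equal size, and a group's bin needed at least 20 cells in a library.

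UMIs were summed per library and class (at least 10 cells) and tested with edgeR 4.0.16 (quasi-likelihood, TMM, edgeR's count filter) in R 4.3.3, with Benjamini-Hochberg adjustment over all genes. A gene was called at an adjusted p below 0.05 if its log2 fold change exceeded 1 in size. The scripts were tested on simulated data. Alternatives were DESeq2 1.42.0, other scalings and filters, left-out replicates, cells matched on pseudotime and a subtraction of each library's mean profile, with the share set by late haploid transcripts in spermatogonia-like cells. All members were named, and of the redox list the 3 genes with the smallest p in each direction. The members and lists were chosen with earlier results of these data known. Each library is 1 mouse, so p-values set a difference between groups against the spread between mice within a group. With few mice per group, edgeR draws its estimate of that spread partly from the other genes.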

Additional observations from a re-analysis of the deposited data

Results flagged for a closer look

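The log2 difference between the drug effect at the end of dosing (T against VC-T) and after withdrawal (R against VC-R) passed the test, at an edgeR adjusted p under 0.05, for 7 pairs of a member and a class of 25 tested. In spermatogonia-like cells these were Prdx4 (-1.04 ± 0.23, adjusted p = 0.011) and Txndc2 (-2.22 ± 0.56, adjusted p = 0.0303). Prdx4 differed from vehicle by -1.09 at the end of dosing and by -0.09 after withdrawal, and Txndc2 by -1.20 and 0.99. Matched on pseudotime, the differences of Prdx4 and Txndc2 were -0.77 and -3.62 (edgeR adjusted p = 0.147 and 0.0157). After ambient subtraction they were -0.70 and -3.35 (edgeR adjusted p = 0.0936 and 0.198). With VC-T 1 in the fit they were -0.78 and -2.15 (edgeR adjusted p = 0.478 and 0.204). Prdx4 thus passed in none of these fits, and Txndc2 only when matched. The call for Txndc2 was lost in 8 of the 11 fits that left out a library. Of all genes, 2.69% in spermatogonia-like, 1.66% in spermatocyte-like and 28.7% in spermatid-like cells were called for this difference. Those calls also need the fold threshold, so the shares of all genes passing by adjusted p alone cannot be lower.

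In spermatid-like cells the members were Prdx4 (-1.22, adjusted p = 3.15e-06), Txndc2 (-1.83, adjusted p = 1.02e-06), Txnrd3 (0.66, adjusted p = 7.60e-04), Prdx6 (0.48, adjusted p = 0.00885) and Gsr (-0.98, adjusted p = 0.0381). Gsr missed the threshold in 6 of the 11 fits that left out a library (-0.33, adjusted p = 0.607 without VC-T 2) and Prdx6 in that without VC-T 2 (0.36, adjusted p = 0.0675). With VC-T 1 in the fit, Txndc2 alone of the 5 passed (edgeR adjusted p = 0.0479, against 0.189 for Prdx4, 0.0965 for Txnrd3, 0.0661 for Prdx6 and 0.344 for Gsr). Against vehicle, Txnrd3 had a log2 fold change of 0.29 in T and -0.32 in R, both past the threshold on adjusted p. Matched on pseudotime, the differences were 0.78 for Prdx4, 0.56 for Txndc2, -0.26 for Txnrd3, -0.05 for Prdx6 and 0.04 for Gsr, of which that of Prdx4 passed (adjusted p = 0.0101). The median of all genes was -0.13 for this difference in spermatid-like cells.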

How the results depend on the processing

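Over 1219 values of single members recomputed under alternatives other than left-out replicates, 1055 kept their side of the threshold (83 of them short of it in both fits and with the other sign), 110 lost it, 42 passed newly and 12 that passed in at least 1 of the fits turned sign. Of 916 with a replicate left out, 839 kept their side (51 of them short of it in both fits and with the other sign), 61 lost it, 16 passed newly and 0 of those that passed in a fit turned sign. The pairs of a member and a class called in T against UC numbered 4 (4 when matched on pseudotime, sharing 1 with these 4), 3 after an approximate ambient subtraction (sharing 2) and 3 with DESeq2. Those in T against VC-T went from 5 to 0 when matched, 3 after subtraction (sharing 2) and 0 with VC-T 1. Those in R against UC went from 0 to 1 in cells with at least 2000 UMIs (Gsr in spermatogonia-like cells, -1.04), and in R against VC-R from 0 to 2 without a count filter (Txndc2 1.06 and Txndc8 1.06 in spermatogonia-like cells). For the difference of drug effects, 4 became 7 without a filter, 1 when matched, 1 after subtraction and 1 with VC-T 1. The shares of all genes called under these alternatives, or with replicates left out, are not set beside the counts. These counts are therefore not a result about the members. Redox list genes called went from 9 to 0 when matched, in a fit where 10.8% of all genes passed by adjusted p alone. Without the filter the median of all genes also moved by more than 0.1 log2 units in some fits, for example to 0.24 in R against UC spermatid-like cells.

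With replicates left out, the pairs called ran from 3 to 5 (T against UC), 0 to 1 (R against UC), 3 to 7 (T against VC-T), 0 to 2 (R against VC-R) and 3 to 4 (difference of effects), and list genes from 9 to 12. R against UC gave 1 without UC 1 or without UC 3, Gsr in spermatogonia-like cells at -1.0 and -1.09. R against VC-R gave 2 without VC-R 1, Txndc2 (1.82) and Txndc8 (1.62) in spermatogonia-like cells. T against VC-T gave 3 without T 2 and 3 without VC-T 2, where Txndc2 in spermatogonia-like cells was at -0.91 and -1.17.

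The values that passed in at least 1 fit and turned after subtraction were those in spermatogonia-like cells of Gpx4 (-0.57 against UC and -0.60 against VC-T in T) and Txnrd3 (-1.5 in T against UC). The subtracted share was 23.8% to 42.7% in T, 8.47% to 12.4% in UC, 7.88% in VC-T 2 and 10.3% in VC-T 3. When matched the values that passed in at least 1 fit and turned were, in T against VC-T, Txndc8 in spermatocyte-like cells (0.68) and Txnrd3 (-0.20) and Txndc2 (0.17) in spermatid-like cells, in R against VC-R Prdx6 in spermatid-like cells (0.0142), and for the difference of effects in spermatid-like cells Prdx4 (0.78), Prdx6 (-0.0527), Txnrd3 (-0.26), Txndc2 (0.56) and Gsr (0.0356). The cause was not tested.

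With the replicate number as a block, the pairs called were 6 (T against UC), 0 (R against UC), 6 (T against VC-T), 0 (R against VC-R) and 3 (difference of effects), and list genes 9. The share of all genes called with the block is not given. In spermatocyte-like cells the block added Prdx4 and Txndc2 in T against UC (-2.12 and -2.45) and in T against VC-T (-1.68 and -1.77), where Prdx4 in spermatogonia-like cells was no longer called. Deviations of same-numbered mice correlated at -0.0641 to 0.148 in spermatid-like and 0.0773 to 0.683 in spermatocyte-like cells of T and UC, and at -0.634 to -0.271 in spermatocyte-like cells of R and UC. No comparison had every pair over 0.1 in either class, so that the numbers were taken to name mice and not to pair them. Cat and Gsr are limited by depth, with under 10 CPM in spermatid-like cells.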

Other observations

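In somatic cells of R, the group with most of them, Sertoli-like cells held Gpx4 at 2900.1 ± 99.2 CPM (n = 3), Prdx6 at 392 ± 21.3, Txndc2 at 374 ± 28.6 and Txndc8 at 302 ± 37.6. The level of Prdx6 was above that of every germ cell class of R. In macrophage-like cells, which are not known to make the spermatid thioredoxins, Txndc2 was at 99.4 ± 38.1 CPM and Txndc8 at 104 ± 16.4. The late haploid genes summed to 92450.0 to 113439.6 CPM in these Sertoli-like and 20099.9 to 42893 CPM in these macrophage-like cells, and the part of germ cell RNA in the somatic values was not tested. Cat, almost absent from haploid cells, was at 29.2 ± 4.04 CPM in Leydig-like and 39.1 ± 21.2 in macrophage-like cells of R, and Gsr at 46.1 ± 11.3 and 33.9 ± 2.59.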
